A study of Homo sapiens with 8 samples.

Results

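MCM5, MCM7, PCNA, TYMS and RRM1 are 5 genes of the DNA replication machinery, read here by 6 probes among 18821 genes on the arrays: PCNA had 2 probes and each other gene had 1. The genes were chosen by their gene symbols after their ratios on these same arrays were known, so their own values are given as a description, with no test. The cells were HepG2, a hepatoblastoma line of human origin that keeps dividing in culture and serves as a model of hepatocytes. All 3 treated groups were loaded with lipid for 24 h and then washed and kept for a further 24 h in serum-free medium. In that medium 1 group received 1 mM linalool, a fragrant monoterpene alcohol of plant oils (2 arrays). Another received 100 µM fenofibrate, a lipid-lowering drug whose acid binds the nuclear receptor PPARα (3 arrays). The lipid-loaded group received no compound (3 arrays). For the lipid, the protocol gives oleate alone (400 µM, bound to albumin, 6.6 to 1), while another label names oleate together with palmitate. Every array set a treated sample in Cy3 against untreated cells in Cy5, with no dye swap. Whether the untreated cells were also kept without serum is not in the labels.

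Before a cell can copy its DNA, the origin recognition complex loads rings of 6 MCM proteins, MCM2 to MCM7, which become the motor of the replicative helicase. PCNA is the sliding clamp that tethers the polymerases to DNA and recruits flap nuclease, ligase and chromatin factors. TYMS makes thymidylate from deoxyuridylate, and RRM1 is the large, catalytic subunit of ribonucleotide reductase, which makes deoxynucleotides from ribonucleotides. In mammalian cells, transcription of many of these genes rises at the passage from G1 to S phase and is controlled by E2F factors and the pocket proteins of the RB family. Their RNA is widely read as a sign of proliferation. In RNA from whole cultures, a change in the share of cells in S phase and a change in RNA per cell cannot be told apart.

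The promoters are shown because all 5 genes had lower ratios with linalool than in lipid-loaded cells. RefSeq (GRCh38.p14) gave a window for 4 of the 5 genes, and MCM5 is named only. Each sequence is the 250 bases before the outermost annotated start, in the direction of transcription. Capitals mark the E2F core TTCCCGC or its reverse complement GCGGGAA.
MCM7, chr7:100101398-100101647, minus strand: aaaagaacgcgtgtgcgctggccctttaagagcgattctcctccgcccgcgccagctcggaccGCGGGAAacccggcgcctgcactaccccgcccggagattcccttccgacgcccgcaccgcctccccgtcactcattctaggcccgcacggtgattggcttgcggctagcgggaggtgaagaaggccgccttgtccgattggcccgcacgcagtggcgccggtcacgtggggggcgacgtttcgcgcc
PCNA, chr20:5126623-5126872, minus strand: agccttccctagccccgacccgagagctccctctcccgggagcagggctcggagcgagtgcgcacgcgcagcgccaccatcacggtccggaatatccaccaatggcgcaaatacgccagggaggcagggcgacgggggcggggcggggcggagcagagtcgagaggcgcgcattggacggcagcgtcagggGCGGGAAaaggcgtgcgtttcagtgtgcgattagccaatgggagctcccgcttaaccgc
TYMS, chr18:657403-657652, plus strand: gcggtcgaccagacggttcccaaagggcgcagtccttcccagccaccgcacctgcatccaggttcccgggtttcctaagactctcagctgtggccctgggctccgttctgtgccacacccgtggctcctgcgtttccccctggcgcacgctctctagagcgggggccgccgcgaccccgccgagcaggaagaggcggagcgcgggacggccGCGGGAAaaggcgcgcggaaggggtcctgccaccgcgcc
RRM1, chr11:4094435-4094684, plus strand: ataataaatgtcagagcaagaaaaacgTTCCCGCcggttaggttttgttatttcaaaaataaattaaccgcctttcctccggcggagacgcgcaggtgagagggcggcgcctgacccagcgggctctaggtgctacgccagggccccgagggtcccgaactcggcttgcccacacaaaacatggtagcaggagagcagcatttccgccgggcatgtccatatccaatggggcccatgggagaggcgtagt

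All 4 windows held the core TTCCCGC on 1 strand or the other, as did 5.52% of 24882 promoter windows of the same length. With 1 more T in front (TTTCCCGC, which contains the core), 3 of the 4 held it, MCM7, PCNA and TYMS, against 1.39% of all windows. The match ended 52 bases before the start in PCNA and 32 bases before it in TYMS, and in PCNA it overlapped a GGGCGG box. It lay farther out in MCM7 and RRM1, whose cores began 187 and 223 bases before the start. The E2F form TTTGGCGC was in 0 of the 4 windows and in 0.547% of all. The NF-Y box CCAAT was in 3 of the 4, all but TYMS, against 33.4% of all windows, and the GGGCGG box of SP1 in 3 of the 4, again all but TYMS, against 41.7%. The CHR element TTTGAA, known from genes of later cell cycle phases, was in RRM1 alone and in 13.8% of all windows. Both strands were searched for each motif. These matches describe letters in the windows and do not show that a factor was bound in these cells.

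The values are log2 ratios of the 2 channels as deposited. Which channel is the numerator is not given, so a positive or negative ratio does not say in which of the 2 samples a gene's RNA was more abundant. Differences between groups are the ratio of the first group named minus that of the second. For the same reason, a lower ratio in a group does not say whether its RNA was less or more abundant than in the other group. A gene-specific dye effect stays in every ratio against untreated cells, and it cancels between groups only where it was equally strong on every array. The number of arrays limits the precision. The labels call the arrays biological replicates and do not state separate cultures, so p-values reflect how these samples vary, and that variation may be technical. Fenofibrate replicate 3 stood apart: over all genes its correlation with each other array lay between 0.07 and 0.10, against at least 0.28 between any pair of the other 7 arrays. Means, medians and differences that rest on it are mostly given with and without it. Counts of genes by sign, by unadjusted p or by overlap between arrays include it. Lipid-loaded replicate 1 had the widest spread of ratios over genes, with an SD of 0.687 against 0.432 to 0.559 on the others. The 7 hepatocyte markers (ALB, AFP, APOA1, APOA2, TTR, SERPINA1 and FGB) were all measured, but ratios give no level, so the cells' identity could not be checked from them.

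The 5 genes had lower ratios in linalool-treated than in lipid-loaded cells on every array, with fenofibrate in between for 4 of them. Averaged over the 5 genes, the log2 ratio was −0.04 and 0.05 on the linalool arrays, 0.48, 0.44 and 0.13 on the fenofibrate arrays, and 1.14, 0.85 and 0.65 on the lipid-loaded arrays. The groups of arrays did not overlap in this average. It stood at 0.01 ± 0.07 with linalool (SD, n = 2), 0.35 ± 0.19 with fenofibrate (SD, n = 3) and 0.88 ± 0.25 in lipid-loaded cells (SD, n = 3). As linear ratios these means are 1.01 with linalool, 1.28 with fenofibrate and 1.84 in lipid-loaded cells. Without fenofibrate replicate 3, the fenofibrate mean was 0.46. All 5 genes were positive on every lipid-loaded array, as were 38.3% of all genes. All 5 were also positive on fenofibrate replicates 1 and 2, where 56.3% and 56.1% of all genes were. On each linalool array 3 of the 5 were positive, near the 55.3% and 55.4% of all genes there.

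**Figure D1:**
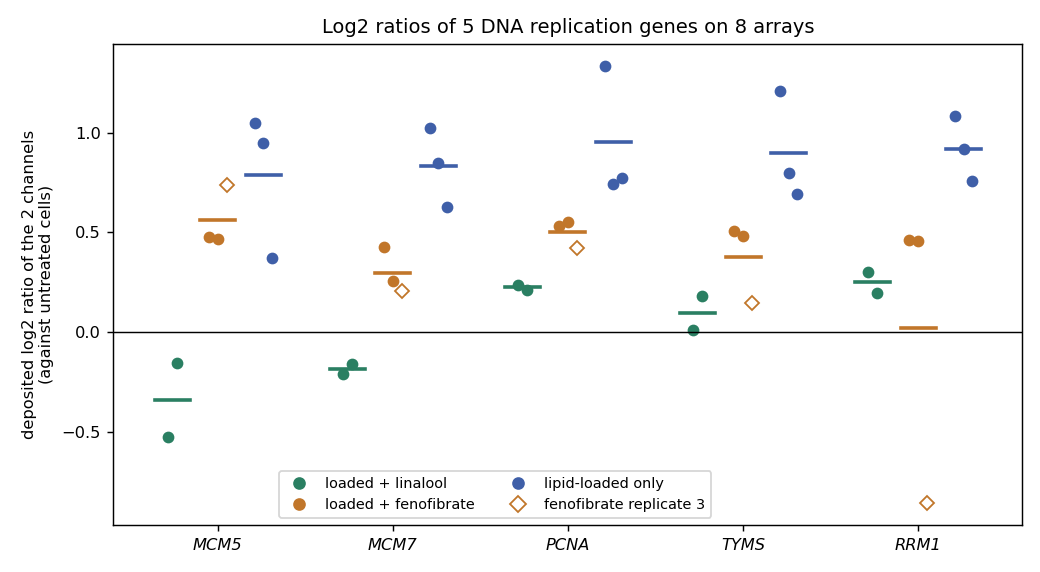
Deposited log2 ratio against untreated cells (vertical axis) for each of the 5 genes, with a point for each array and a line at each group mean; the open diamond is fenofibrate replicate 3. The linalool points lie below every lipid-loaded point for all 5 genes, and the fenofibrate RRM1 point at −0.86 is far from the other 2 fenofibrate arrays.

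MCM5, 1 of the 6 subunits of the MCM ring, had log2 ratios of −0.53 and −0.16 with linalool, 0.48, 0.47 and 0.74 with fenofibrate, and 1.05, 0.95 and 0.37 in lipid-loaded cells. Both linalool arrays were negative, and all the others were positive. The fenofibrate and lipid-loaded arrays overlapped, because lipid-loaded replicate 3 was below all 3 fenofibrate arrays. The group means were −0.34 ± 0.26 (SD, n = 2) with linalool, 0.56 ± 0.15 (SD, n = 3) with fenofibrate and 0.79 ± 0.37 (SD, n = 3) in lipid-loaded cells. The difference linalool minus lipid-loaded was −1.13 (SE 0.28), the largest in size among the 5 genes, while fenofibrate minus lipid-loaded was −0.23 (SE 0.25), within its own error.

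MCM7, another subunit of the ring, had log2 ratios of −0.21 and −0.16 with linalool, 0.43, 0.26 and 0.20 with fenofibrate, and 1.02, 0.85 and 0.63 in lipid-loaded cells. The 3 groups separated fully, with linalool lowest and lipid-loaded highest. The means were −0.19 ± 0.04 (SD, n = 2) with linalool, 0.30 ± 0.12 (SD, n = 3) with fenofibrate and 0.83 ± 0.20 (SD, n = 3) in lipid-loaded cells. MCM7 differed from lipid-loaded cells by −1.02 (SE 0.24) with linalool and by −0.54 (SE 0.22) with fenofibrate. MCM5 and MCM7 were the 2 members with a negative ratio on both linalool arrays.

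PCNA, the clamp, had log2 ratios of 0.24 and 0.21 with linalool, 0.53, 0.55 and 0.42 with fenofibrate, and 1.34, 0.74 and 0.77 in lipid-loaded cells. All 8 values were positive and the 3 groups did not overlap. The means were 0.23 ± 0.02 (SD, n = 2) with linalool, 0.50 ± 0.07 (SD, n = 3) with fenofibrate and 0.95 ± 0.33 (SD, n = 3) in lipid-loaded cells. As linear ratios these are 1.17 with linalool, 1.41 with fenofibrate and 1.93 in lipid-loaded cells. The 2 PCNA probes lay within 0.15 of each other on 7 of 8 arrays. On fenofibrate replicate 3 they differed by 0.33, with 0.25 and 0.58, so the array that stood apart was also where the probes of 1 gene were farthest apart. The difference from lipid-loaded cells was −0.73 (SE 0.26) with linalool and −0.45 (SE 0.24) with fenofibrate.

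TYMS, the thymidylate synthase, had log2 ratios of 0.01 and 0.18 with linalool, 0.51, 0.48 and 0.15 with fenofibrate, and 1.21, 0.80 and 0.69 in lipid-loaded cells. Both compound groups lay below all lipid-loaded arrays, and they overlapped each other through fenofibrate replicate 3. The means were 0.10 ± 0.12 (SD, n = 2) with linalool, 0.38 ± 0.20 (SD, n = 3) with fenofibrate and 0.90 ± 0.27 (SD, n = 3) in lipid-loaded cells. TYMS differed from lipid-loaded cells by −0.80 (SE 0.26) with linalool and by −0.52 (SE 0.24) with fenofibrate.

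RRM1, the reductase subunit, had log2 ratios of 0.30 and 0.20 with linalool, 0.46, 0.46 and −0.86 with fenofibrate, and 1.08, 0.92 and 0.76 in lipid-loaded cells. The negative value is that of fenofibrate replicate 3, and it alone sets the fenofibrate mean. That mean was 0.02 ± 0.76 (SD, n = 3) with the array and 0.46 without it, against 0.25 ± 0.08 with linalool (SD, n = 2) and 0.92 ± 0.16 in lipid-loaded cells (SD, n = 3). With all arrays RRM1 was the 1 member whose fenofibrate mean lay below its linalool mean. The difference fenofibrate minus lipid-loaded was −0.90 (SE 0.34) with the array and −0.46 (SE 0.21) without it, and linalool minus lipid-loaded was −0.67, with an SE of 0.38 in the fit with the array and 0.21 in the fit without it.

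**Figure D2:**
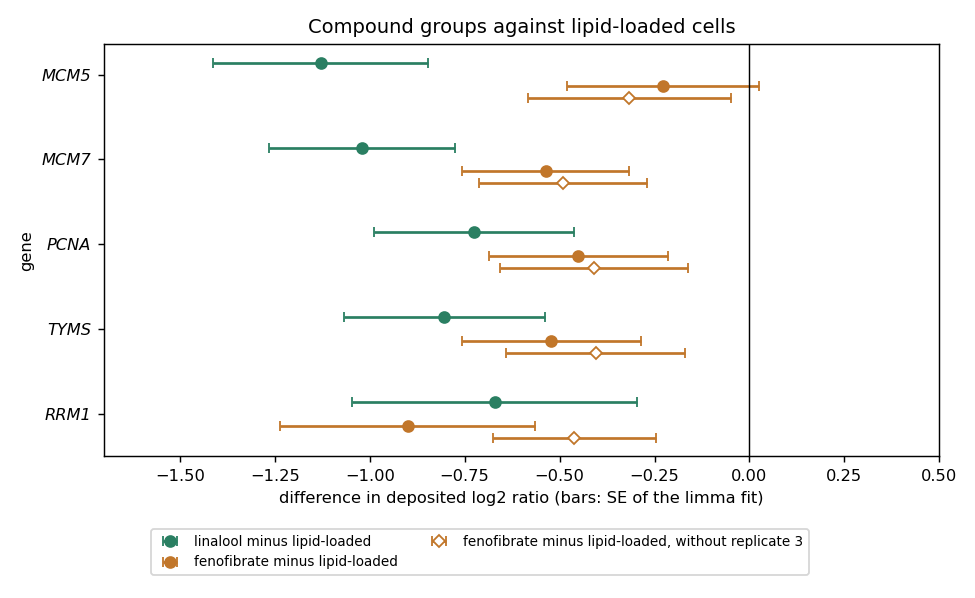
Difference in deposited log2 ratio from lipid-loaded cells (horizontal axis) for each of the 5 genes, as the coefficient of the limma fit with its SE as the bar; open diamonds leave out fenofibrate replicate 3. All 5 linalool differences lie between −1.13 and −0.67, and without that replicate the fenofibrate differences lie between −0.49 and −0.32.

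Counted over arrays, all linalool values were below all lipid-loaded values for 5 of the 5 genes, as for 24.3% of all genes tested. Fenofibrate was below lipid-loaded in this sense for 4 of 5 genes (12.4% of all genes), and linalool below fenofibrate for 3 of 5 (11.2%). The group means stood in the order linalool, fenofibrate, lipid-loaded from low to high for 4 of 5 genes (22.6%). Since the genes were chosen with these ratios known, nothing is read from these counts. The 2 compound differences share the lipid-loaded arrays.

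Ranked among all genes of the same array, by the deposited ratio, the 5 genes had high ranks in lipid-loaded cells and lower ones with linalool. In lipid-loaded cells, the lowest rank was that of MCM5 on replicate 3, above 67.5% of genes, and the highest that of PCNA on replicate 1, above 99.8%. RRM1 kept the narrowest band there, above 96.9% to 97.8% of genes. With linalool, the ranks ran from MCM5 on replicate 1, above 11.4% of genes, to RRM1 on the same array, above 73.8%. With fenofibrate they ran from 3.02% for RRM1 on replicate 3 to 94.1% for MCM5 on the same array, and from 68.6% to 93.8% on the other 2 arrays. With the sign of the ratio turned, the same genes would rank above 26.1% to 88.5% of genes with linalool, 5.85% to 96.9% with fenofibrate and 0.207% to 32.4% in lipid-loaded cells. The 5 genes spread most on fenofibrate replicate 3, over 1.59 log2 units between RRM1 and MCM5. They spread least on fenofibrate replicate 1, over 0.10 units between MCM7 and PCNA.

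**Figure D3:**
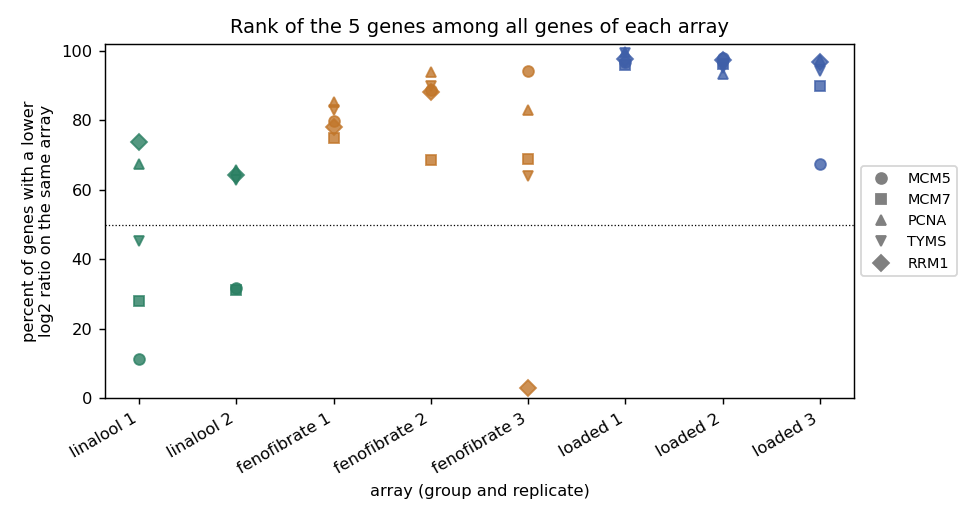
Percent of genes with a lower log2 ratio on the same array (vertical axis, 0 to 100) for each of the 5 genes on each array; symbols tell the genes apart and colours the groups. By the deposited ratio, the lipid-loaded arrays hold the 5 genes near the top apart from MCM5 at 67.5 on replicate 3, and the linalool arrays spread them from 11.4 to 73.8.

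Over the 8 arrays, which share the untreated cells' channel and fall into 3 groups, the ratios of the members were correlated pair by pair with r from 0.224 to 0.963. PCNA and TYMS were the closest pair and MCM5 and RRM1 the most distant. Without fenofibrate replicate 3, r lay between 0.851 and 0.975. Among 18814 genes with values on all arrays, RFWD3, a ubiquitin ligase that acts on RPA at stalled forks, was most like the average of the members (r = 0.992). GINS2, a subunit of the GINS part of the helicase, came next (0.991). GINS2 stood at −0.26 with linalool, 0.17 with fenofibrate and 0.76 in lipid-loaded cells, and RFWD3 at 0.00 with linalool, 0.26 with fenofibrate and 0.77 in lipid-loaded cells. The next 8 were NEK2, NAA50, ARL1, PRMT1, PGAM4, HSD17B4, ELP5 and RANBP1, with r from 0.981 to 0.985. PGAM4 is a near copy of PGAM1, whose RNA its probe may also bind. Among the 10, GINS2 was the only gene of the replication lists. The median r with the members' average was 0.739 over the other replication genes and 0.07 over all genes.

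The other genes of DNA replication were taken from 4 lists by role, which leave the members out and were written with earlier results of these data known. These lists gave 88 measured genes. In lipid-loaded cells, 87 of the 88 had a positive mean ratio, as did 9384 of all 18819 genes tested. The median of the 88 was 0.56, against −0.00 over all genes. The limma fit called 48 of the 88 at an adjusted p under 0.05, all with a positive ratio (54.5%), where 24.1% of all genes were called positive and 10.7% negative. On every lipid-loaded array, 74 of the 88 were positive (84.1%), as were 38.3% of all genes. With linalool the median of the 88 was 0.06 and with fenofibrate 0.14, or 0.32 without fenofibrate replicate 3. The 5 members passed the same threshold in lipid-loaded cells, which is no test since they were chosen with their ratios on these arrays known. The count of 48 rests on lipid-loaded replicate 1, as does every other call in this comparison. Without that array the count was 0, and the smallest adjusted p over all genes in the limma fit was 0.0987. No gene, in the replication lists or outside them, was then called. The count was 17 without replicate 2 and 25 without replicate 3. It was also 0 once the arrays were scaled to equal spread, and 26 after quantile normalization. The share of all genes called in these last fits is not given here, so the lower counts are not read as particular to replication genes. The median of the 88 was 0.50 without replicate 1, 0.60 without replicate 2 and 0.64 without replicate 3, and it was 0.44 with equal spread and 0.46 after quantile normalization.

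Helicase loading and origin firing had 15 of 26 genes called in lipid-loaded cells, all positive (57.7%, against 24.1% of all genes). Of the members' partners in the MCM ring, MCM2 stood at 0.70 (SE 0.19, limma adjusted p = 0.021), MCM3 at 0.70 (SE 0.16, limma adjusted p = 0.0144) and MCM4 at 0.71 (SE 0.19, limma adjusted p = 0.0199). MCM6, the remaining subunit of the ring, stood apart at 0.16 (SE 0.21, limma adjusted p = 0.542). Its log2 ratios were 0.37 and −0.45 with linalool, −0.93, −0.05 and −0.45 with fenofibrate, and 0.04, 0.19 and 0.25 in lipid-loaded cells, so its lipid-loaded mean was the lowest of the ring, where the other 5 subunits had means from 0.70 to 0.83. The list's highest values were those of TOPBP1, which helps activate the helicase, at 0.81, GINS2 at 0.76 and ORC3, of the origin recognition complex, at 0.75, all past the threshold. DBF4, the activating partner of the CDC7 kinase, had the list's one negative mean, −0.34 (SE 0.26, limma adjusted p = 0.309).

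Polymerases, primase, clamp and lagging strand genes had 16 of 30 called in lipid-loaded cells, all positive (53.3%, against 24.1% of all genes). PCNA is opened and placed on DNA by the 5 subunits of replication factor C. Of these, RFC4 stood at 0.95, RFC2 at 0.81, RFC3 at 0.73 and RFC5 at 0.71, all called, and RFC1 at 0.49 (SE 0.19, limma adjusted p = 0.0608), which did not pass. FEN1, the flap nuclease that PCNA recruits, was positive on all 8 arrays, with 0.82 and 0.48 with linalool, 0.69, 0.58 and 0.57 with fenofibrate, and 1.12, 0.65 and 0.75 in lipid-loaded cells. Unlike PCNA, its groups overlapped. LIG1, the ligase that seals the nicks FEN1 leaves, stood at 0.40 (SE 0.18, limma adjusted p = 0.089). POLE3, a small subunit of polymerase epsilon, was called at 0.90, while the catalytic subunits POLD1 at 0.67 (limma adjusted p = 0.0501) and POLE at 0.25 (0.415) did not pass. CHTF18 of an alternative clamp loader and RPA3 of the single-strand binding protein had the lowest means, 0.02 and 0.08.

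Deoxynucleotide supply, the list to which TYMS and RRM1 belong, had 10 of 15 other genes called in lipid-loaded cells, all positive (66.7%, against 24.1% of all genes). TK1, the thymidine kinase of the salvage pathway, was at −0.54 and −0.29 with linalool, 0.49, 0.29 and 0.41 with fenofibrate, and 1.04, 1.29 and 0.55 in lipid-loaded cells. The 3 groups did not overlap, as for MCM7 and PCNA. RRM2, the small reductase subunit that pairs with RRM1 in S phase, stood at 0.75 in lipid-loaded cells (SE 0.18, limma adjusted p = 0.0158), and RRM2B, the p53-inducible small subunit, at 0.53 (SE 0.18, limma adjusted p = 0.0414). On fenofibrate replicate 3, where RRM1 was at −0.86, RRM2 was at −0.31 and RRM2B at −0.18. DTYMK, the thymidylate kinase that acts after TYMS and TK1, was called at 0.76. DUT, which makes the deoxyuridylate that TYMS uses, stood at 0.35 (SE 0.23, limma adjusted p = 0.235).

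Fork protection and chromatin assembly had 7 of 17 genes called in lipid-loaded cells, all positive (41.2%, against 24.1% of all genes). They were led by NASP, a histone chaperone, at 0.80, UHRF1, which guides DNA methylation of new strands, at 0.80, and TONSL, which binds new histones, at 0.69. The lowest mean was that of BLM, a helicase of recombination, at 0.33 (SE 0.17, limma adjusted p = 0.127). All 17 had a positive mean in lipid-loaded cells.

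**Figure D4:**
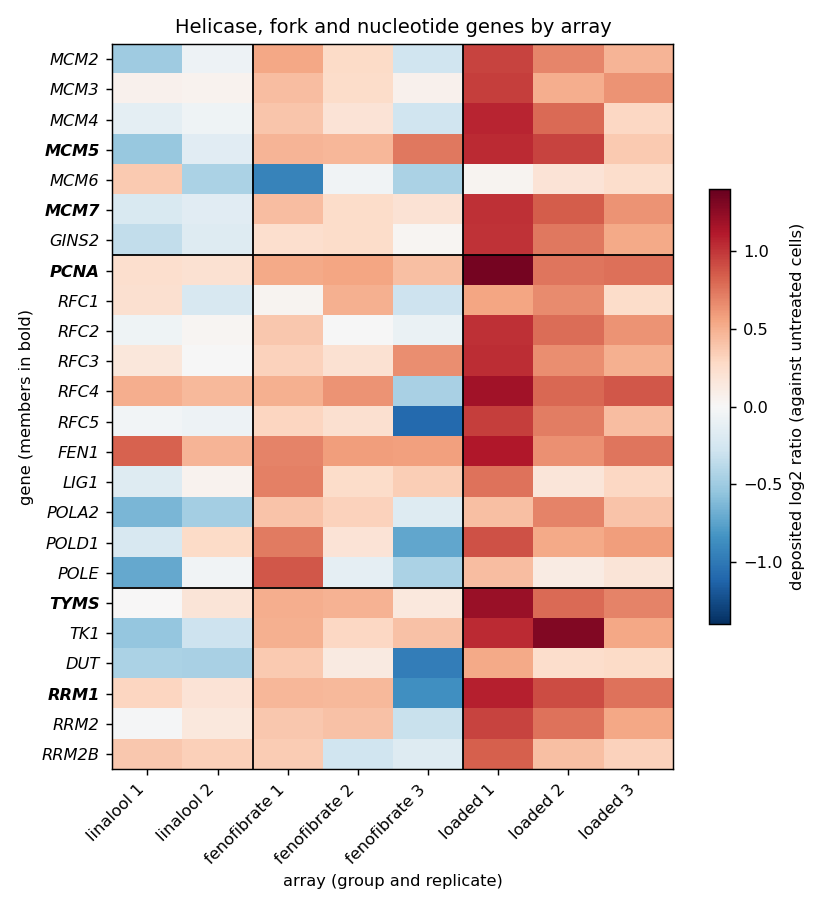
Deposited log2 ratios against untreated cells (colour scale) of the members, in bold, and of genes of the same complex or step, by array. MCM6 averages 0.16 in lipid-loaded cells, against 0.70 to 0.83 for the rest of the MCM ring, FEN1 is positive on all 8 arrays, and RRM1, RFC5 and DUT are strongly negative on fenofibrate replicate 3.

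With all arrays, no gene passed the threshold outside the lipid-loaded group, so these comparisons are given by unadjusted p, size and overlap. The limma fit called 0 of 18819 genes (0%) in each of linalool against untreated cells, fenofibrate against untreated cells, and the 3 differences between groups. Without fenofibrate replicate 3, 5 genes were called positive with linalool against untreated cells and 1 with fenofibrate. Of the 88 replication genes, 0 were among them. With all arrays, the smallest adjusted p in the limma fit was 0.0643 for linalool and 0.0968 for fenofibrate against untreated cells. It was 0.296 for linalool minus lipid-loaded, 0.472 for fenofibrate minus lipid-loaded and 0.633 for linalool minus fenofibrate. With linalool against untreated cells, 5 of the 88 replication genes were positive and 2 negative at an unadjusted p under 0.05, against 6.7% and 5.66% of all genes. With fenofibrate, 13 were positive and 1 negative, against 11.1% and 7.05% of all genes.

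In linalool minus lipid-loaded, 84 of the 88 replication genes had a negative difference, as did 10370 of all 18819 genes tested. The median of the 88 was −0.52, against −0.06 over all genes. At an unadjusted p under 0.05, 28 were negative (31.8%, against 6.14% of all genes) and 0 positive. On 57 of the 88, both linalool arrays lay below every lipid-loaded array (64.8%, against the 24.3% above). The lowest difference was that of TK1, −1.37 (SE 0.28, limma adjusted p = 0.296), followed by POLA2, a subunit of the polymerase alpha-primase complex, and NASP, both at −1.07. GINS2 at −1.02 and MCM2 at −0.99 came close to MCM5 and MCM7 in size. FEN1 at −0.19 and RRM2B at −0.18 differed little. By role, the median was −0.57 for helicase loading, −0.52 for the polymerase list, −0.46 for fork protection and −0.35 for deoxynucleotide supply.

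In fenofibrate minus lipid-loaded, 81 of the 88 had a negative difference, as did 10394 of all 18819 genes tested. The median of the 88 was −0.43, or −0.29 without fenofibrate replicate 3, against −0.06 and −0.07 over all genes. At an unadjusted p under 0.05, 22 were negative (25% of the 88, against 4.93% of all genes) and 0 positive. All fenofibrate arrays lay below all lipid-loaded arrays on 33 (37.5%, against the 12.4% above). The counts of 81, 22 and 33 include fenofibrate replicate 3 and are not given without it. They may rest in part on that array. The lowest difference with all arrays was that of ORC2 at −0.92, which was −0.15 (SE 0.23) without fenofibrate replicate 3. RFC5 came next at −0.89, or −0.44 (SE 0.23) without that array, and GINS1 stood at −0.85, or −0.65 (SE 0.26) without it. On the array itself ORC2 was at −1.74 and RFC5 at −1.09, against 0.66 and 0.47 for ORC2 and 0.31 and 0.22 for RFC5 on the other 2 fenofibrate arrays. On that replicate the median of the 88 was −0.14, against 0.36 and 0.25 on fenofibrate replicates 1 and 2.

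In linalool minus fenofibrate, 53 of the 88 had a negative difference, as did 9295 of all 18819 genes tested. The median of the 88 was −0.08, or −0.21 without fenofibrate replicate 3, against 0.01 and −0.03 over all genes. At an unadjusted p under 0.05, 4 were negative (4.55%, against 2.52% of all genes) and 1 was positive. On 17 the linalool arrays lay below all fenofibrate arrays (19.3%, against 11.2% of all genes), and on 4 they lay above them all. The group means stood in the order linalool, fenofibrate, lipid-loaded on 47 of the 88 (53.4%, against 22.6%). TK1 had the lowest difference, −0.81, near that of MCM5 at −0.90. POLD4, a small subunit of polymerase delta, had the highest, 0.80, and MCM7 stood at −0.48. PCNA and TYMS, both at −0.28 (SE 0.26 each), differed little beyond their errors.

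Regulators of the passage from G1 to S phase had 18 of 31 genes called with a positive ratio in lipid-loaded cells (58.1%, against 24.1% of all genes). With a negative ratio 1 was called, where 10.7% of all genes were. Like all calls in lipid-loaded cells, these were lost without lipid-loaded replicate 1. SKP2, which marks the inhibitor CDKN1B for degradation, stood at 1.07, CDK4, the kinase of D-type cyclins, at 0.81 and E2F4, an E2F factor best known as a repressor with pocket proteins, at 0.78, all with a limma adjusted p under 0.05. E2F1, an activator of replication genes, stood at 0.50 (SE 0.21, limma adjusted p = 0.0831). Its log2 ratios were −0.47 and −0.50 with linalool, 0.33, −0.22 and −0.93 with fenofibrate, and 0.64, 0.37 and 0.49 in lipid-loaded cells. The CDK inhibitor CDKN1A was also called positive, at 0.72, as were the cyclins CCND1 at 0.67 and CCNE1 at 0.68, while CCNE2 stood at −0.22 (SE 0.17, limma adjusted p = 0.314). CDKN2A, the locus of the CDK4 inhibitor p16 and of ARF, was the negative call, at −0.89 (SE 0.17, limma adjusted p = 0.0135). CCND1 was positive on all 8 arrays, like PCNA and TYMS, with 0.25 and 0.56 with linalool, 0.73, 0.41 and 0.87 with fenofibrate, and 0.83, 0.63 and 0.56 in lipid-loaded cells.

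Mitotic genes, which act after replication, had group means in the order linalool, fenofibrate, lipid-loaded from low to high on 17 of 18 genes (22.6% of all genes), the order that MCM5, MCM7, PCNA and TYMS also had. In lipid-loaded cells 16 of 18 were called, all positive (against 24.1% of all genes), with a median of 0.72. These calls too were lost without lipid-loaded replicate 1. Linalool minus lipid-loaded had a median of −0.72 with all 18 negative. CDC25C, the phosphatase that activates CDK1, stood at 0.87 in lipid-loaded cells, CCNB1, the mitotic cyclin, at 0.84 and CDC20, of the anaphase-promoting complex, at 0.83. BIRC5, or survivin, had the lowest difference between linalool and lipid-loaded cells, −1.11 (SE 0.27, limma adjusted p = 0.325). Markers of other cell types mostly went the other way in lipid-loaded cells, where 14 of 18 measured had a negative mean. The other 4 were positive, highest in CD68 at 0.81 and ACTA2 at 0.62. Ratios do not show whether these markers were above background. Of the 18 markers, 1 was called positive, CD68, and 8 negative, against 24.1% and 10.7% of all genes. Their median was −0.26 and −0.04 on the linalool arrays, −0.57, 0.02 and −0.27 on the fenofibrate arrays, and −0.55, −0.54 and −0.33 on the lipid-loaded arrays. The 7 hepatocyte markers had medians of 0.43 and −0.06 on the linalool arrays, 0.66, 0.48 and 0.83 on the fenofibrate arrays, and 0.86, 0.55 and 0.65 on the lipid-loaded arrays. Hepatocyte markers were thus positive in lipid-loaded cells along with the replication genes, and their part in the result was not tested.

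**Figure D5:**
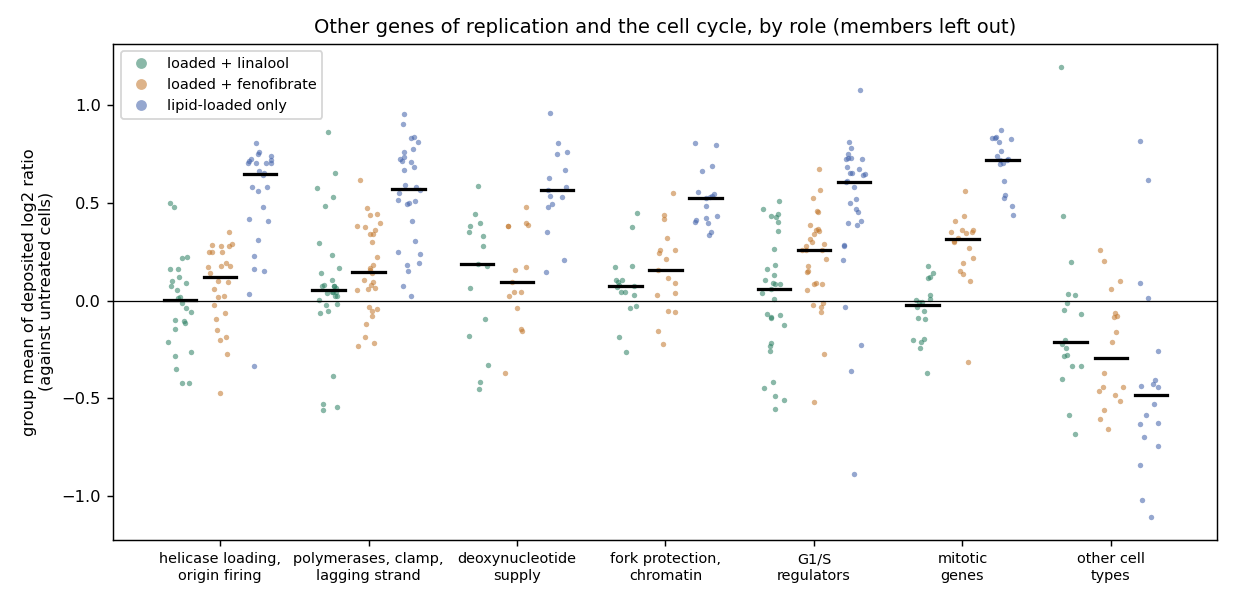
Group mean of the deposited log2 ratio against untreated cells (vertical axis) for each measured gene of the 4 replication lists, the G1/S regulators, the mitotic genes and the markers of other cell types, members left out; black lines mark medians. The medians of the replication lists lie between 0.53 and 0.65 in lipid-loaded cells, against 0.00 to 0.18 with linalool and 0.09 to 0.16 with fenofibrate, or 0.27 to 0.39 with fenofibrate when its replicate 3 is left out.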

How the data were processed

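The authors deposited log2 ratios of the 2 channels for 29187 probes, with 4 missing values. How the arrays were scanned, background-corrected and normalized is not given in the sources used, and spot brightness was not analysed here. Base 2 was settled from the values: after removing a constant per array, 100% were log2 of numbers with 3 decimals (tolerance 1e-04). The platform annotation gave 25053 probes 1 symbol, 0 several and 4134 none, and 24981 matched current RefSeq annotation. Probes of a gene were averaged. Tests covered 18819 of 18821 genes, those with 2 or more values per group.

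A single fit in limma 3.58.1 (lmFit and eBayes, R 4.3.3; data.table package, version 1.17.8) covered all 8 arrays, with 1 coefficient per group and 5 residual degrees of freedom, and 6 comparisons. The untreated cells' own spread is not in the ratios. Calls used a Benjamini-Hochberg adjusted p under 0.05 over all genes. The procedure was tested on simulated data. Named genes were the members, the 3 highest and 3 lowest of each list in lipid-loaded cells, the highest and lowest in the other comparisons, partners in the same complex or step, and the 10 genes most correlated with the members' average. The members and lists were chosen with earlier results of these data known. Alternatives left out each array, rescaled, quantile-normalized or median-centred the arrays, weighted them, used the replicate number as a block, took probe medians, or fitted the compared groups alone.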

Additional observations from a re-analysis of the deposited data

Results flagged for a closer look

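Differences in which every array of 1 group was positive and every array of the other negative are listed here for the members and for the other genes that the naming rule gives. How many of all genes meet this condition was not counted. Many of the named genes were the highest or lowest of their list in these same comparisons, so nothing is read from their number. Whatever the sign, 24.3% of all genes had both linalool arrays below every lipid-loaded array. The differences of the members were not tested. MCM5 differed by −1.13 in linalool minus lipid-loaded and by −0.90 in linalool minus fenofibrate. MCM7 differed by −1.02 and by −0.48 in the same comparisons.

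The differences of the other genes did not pass the limma test, with adjusted p from 0.296 to 0.989. In linalool minus lipid-loaded, the helicase genes MCM2, MCM4, GINS1 and GINS2 differed by −0.99, −0.82, −1.002 and −1.02. At the fork, RFC5 differed by −0.76, POLA2 by −1.07, POLE by −0.63 and NASP by −1.07. In nucleotide supply, TK1 differed by −1.37 and DUT by −0.80. Among G1/S regulators, E2F1 differed by −0.99, E2F4 by −1.20, SKP2 by −1.20 and MYBL2 by −1.12. The mitotic genes BIRC5 and KIF11 differed by −1.11 and −0.73, NEK2 and ARL1, both among the genes most like the members, by −0.82 and −0.66, and ACTA2, a marker of other cell types, by −0.63.

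In linalool minus fenofibrate, TK1 differed by −0.81, GINS2 by −0.44, NASP by −0.58, SKP2 by −0.49, KIF11 by −0.60, BIRC5 by −0.64, NEK2 by −0.28, ARL1 by −0.30 and DCN, a marker of fibroblasts, by −0.66. In fenofibrate minus lipid-loaded, MCM6 differed by −0.63 and DCN by 0.79. Groups of 2 and 3 arrays are too small for a check for single outlying samples.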

How the results depend on the processing

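The 48 replication genes called in lipid-loaded against untreated cells became 0 once arrays were scaled to equal spread and 26 after quantile normalization. Leaving out 1 array gave 0 to 63, the lowest without lipid-loaded replicate 1 and the highest without fenofibrate replicate 3. Calls over all genes moved the same way. They were 0 without lipid-loaded replicate 1, and 5353 genes were called positive without fenofibrate replicate 3, against 4537 with all arrays. The cause was not tested, and the smaller number of arrays was not told apart from which array was left out. With the replicate number as a block the count was 54. The share of all genes called in the scaled, quantile-normalized and block fits is not given here. The counts of these fits are therefore not read as particular to replication genes. Deviations from the group means were correlated at −0.02 to 0.14 for samples with the same number and at −0.14 to 0.07 for different numbers. With so few arrays per group these deviations depend on each other, so they cannot show whether the numbers pair the samples. The other 5 comparisons had 0 calls among the 88 genes under every alternative run.

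Of 462 values of the members under alternatives, 452 kept their sign, and the 10 that turned were at most 0.25 in size. Linalool minus lipid-loaded was negative for all 5 members in every alternative. Fenofibrate minus lipid-loaded was negative for all in every alternative except MCM5 in 1 of 15, the scaling to equal spread, which gave 0.02. Without 1 array, the members' average ran from −0.04 to 0.05 with linalool, 0.29 to 0.46 with fenofibrate and 0.75 to 1.00 in lipid-loaded cells. Signal over background could not be judged from ratios.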
